A study of Homo sapiens with 6 samples.

Results

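The genes described here make and run the lysosome, the acidic compartment in which cells break down macromolecules, and the autophagy pathway that delivers cell contents to it. They were 46 genes chosen by symbol from the 55765 genes of a count table. The 46 comprised 5 lysosomal membrane proteins, 18 hydrolases and hydrolase activators, 3 of the TFEB family's transcription factors, 14 proton pump genes and 6 autophagy genes. Cathepsins, the lysosomal proteases, were not among them. All 46 symbols were found, and 44 passed the filter on low counts. SGSH, a heparan sulphate sulphatase, had 4, 0 and 1 counts in MRT199665 replicates 1, 2 and 3 and 2, 0 and 0 with vehicle. ATP6V0C, which encodes the membrane ring subunit of the proton pump, had 2, 0 and 2 counts with MRT199665 and none with vehicle. In both genes the low counts held in both groups, and no fold change is given for either.

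Counts came from OCI-AML2, an established human acute myeloid leukaemia cell line, in 3 libraries treated with 100 nM MRT199665 and 3 treated with vehicle, both for 48 h. MRT199665 is described in the labels as a MARK inhibitor, and SIK kinases, which are related to MARK, are also among its known targets. The labels state that the cultured cells were clones grown from single cells, but not whether replicate libraries stem from separate cultures. The p-values thus rest on library-to-library spread that could be technical only. The kit reads the 3′ end of each transcript, and levels are given as CPM, the count scaled to a common library size with TMM factors. A CPM is not divided by transcript length, so levels of different genes are not ranked against each other.

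Depth ran from 5871097 counts (MRT199665 replicate 2) to 14308650 counts (MRT199665 replicate 3). A count of 0 allows up to 3 counts, which is between 0.212 and 0.506 CPM in these libraries, counting error only. The libraries numbered 2 stood at opposite ends of the first principal component (46.75% of the variance), where the treated library scored 48.4 and the vehicle library -36.8. For many of the members the value without both is given beside the one from all 6 libraries. Of 11 myeloid and leukaemia markers, 8 were measured, among them SPI1, CD33, MPO and PTPRC, and CEBPA, CD34 and CD68 had a count of 0 in every library. The summed level of the 11 markers was 597 to 655 CPM with MRT199665 and 547 to 561 CPM with vehicle. All 8 measured markers had a positive log2 fold change and 6 had an unadjusted p under 0.05. Of 11 markers of other cell types, which summed to 5.81 to 6.76 CPM with MRT199665 and 6.21 to 8.67 CPM with vehicle, HBA1, HBB and KRT18 were among those at 0. The part of these marker levels in the results on the lysosomal genes was not tested. In bulk libraries, a change in the share of cells that express a gene and a change in RNA per cell cannot be told apart.

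Lysosomal hydrolases are made in the endoplasmic reticulum, carried to the lysosome and activated by the low pH that the proton pump, the V-ATPase, maintains by moving protons across the lysosomal membrane. TFEB, TFE3 and MITF are transcription factors that bind E-box motifs in promoters of many of these genes. Their activity is known to be set largely by phosphorylation and location in the cell, which RNA counts do not measure. In autophagy, small ubiquitin-like proteins of the LC3 and GABARAP families are attached to a membrane that closes around cargo, and receptors such as the SQSTM1 protein link cargo to them. Macrophages and other phagocytes are rich in lysosomes.

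With MRT199665 no lysosomal, proton pump or autophagy member passed the test over all genes, but most had a positive log2 fold change of small size. Of the 44 tested members, 0 were called higher and 0 lower (edgeR quasi-likelihood test, Benjamini-Hochberg adjusted p under 0.05), where 0.85% of the 13053 tested genes were called higher and 0.398% lower, 1.25% in all. DESeq2 called 3 members higher (GRN, PSAP and TFEB), where it called 217 of the 13053 tested genes higher and 146 lower. Limma-voom called 0 members higher, where it called 107 genes higher and 50 lower. Neither method called a member lower. At an unadjusted p under 0.05, 9 members (20.5%) were higher, where 7.63% of all tested genes were, and 1 member (2.27%) was lower, where 7.11% were. The median log2 fold change of the tested members was 0.16, against 0.01 over all tested genes, and 35 of 44 (79.5%) were positive, against 50.9%. All 3 MRT199665 libraries lay above all 3 vehicle libraries for 10 members (22.7%, against 11.4% of all tested genes). For SQSTM1 and ATP6V1H they lay below (4.55%, against 10.8%). The members were chosen with earlier results of these data known, so no test was made of the list as a whole. Without both libraries numbered 2 the median was 0.12 and 31 of 44 members were positive. Without vehicle replicate 1 alone the median was 0.25 and 32 members were positive.

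**Figure D1:**
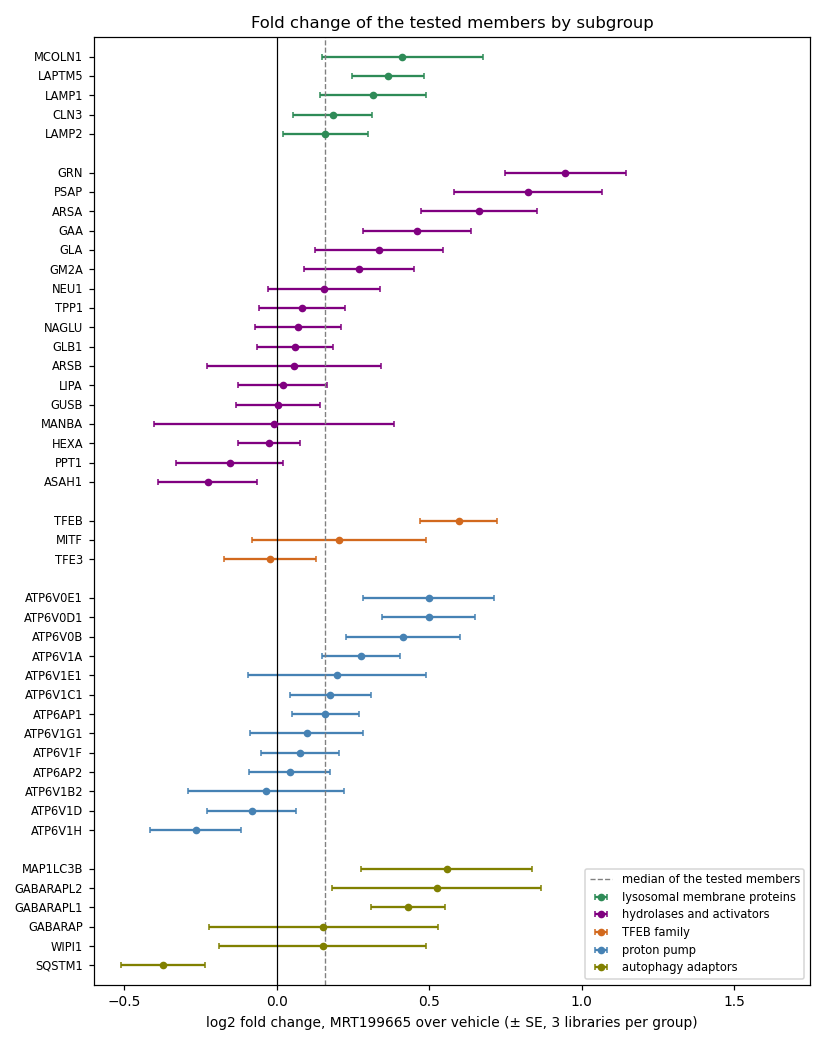
Log2 fold change (horizontal axis, MRT199665 over vehicle) of the 44 tested members, with bars of 1 SE on either side, 3 libraries per group, coloured by subgroup, and a dashed line at the members' median of 0.16. GRN (0.95) and PSAP (0.82) lie farthest to the right and SQSTM1 (-0.37) farthest to the left.

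The members together took 0.814% to 0.899% of all counts in the MRT199665 libraries and 0.654% to 0.661% in the vehicle libraries. GRN alone took 0.212% to 0.329% with MRT199665 and 0.119% to 0.160% with vehicle. The other 45 members took 0.570% to 0.611% and 0.499% to 0.534%. The shares of the groups did not overlap, with or without GRN. Members with many counts weigh most in these shares. Among them were LAPTM5 (mean 1571 CPM with MRT199665 and 1219 CPM with vehicle), PSAP (503 and 284) and PPT1 (825 and 918). Shares without LAPTM5 and PSAP were not computed.

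**Figure D2:**
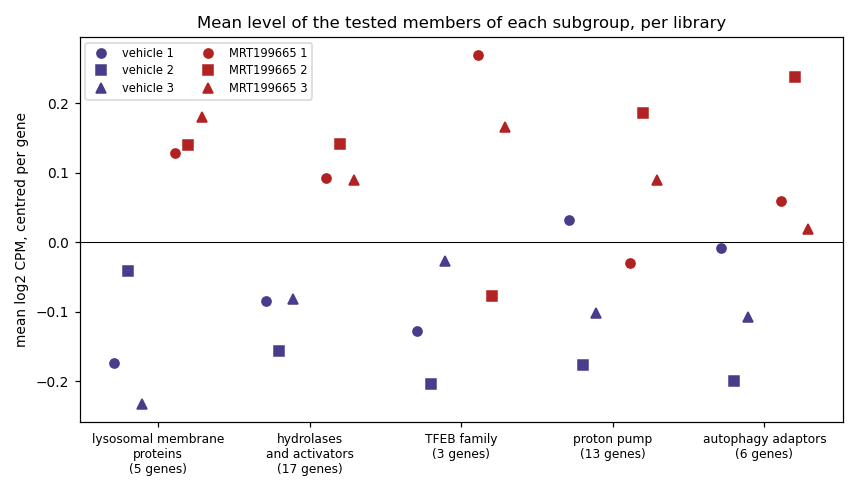
Mean log2 CPM of the tested members of each subgroup, centred per gene (vertical axis), for each of the 6 libraries, with vehicle in dark blue and MRT199665 in red. The groups are apart for the membrane proteins, the hydrolases and the autophagy genes, and overlap for the proton pump, where vehicle replicate 1 (0.0316) lies above MRT199665 replicate 1 (-0.0292), and for the TFEB family.

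Among the 3 transcription factors the groups were apart for TFEB and overlapped for TFE3 and MITF. TFEB, known as the main activator of lysosomal and autophagy genes, stood at 24.7, 25.7 and 25.6 CPM in MRT199665 replicates 1, 2 and 3 and at 15.3, 17.9 and 17.0 CPM with vehicle. The 3 treated libraries were nearly equal and all above the vehicle libraries. The fold change was 1.51, with a log2 value of 0.60 ± 0.13 (SE) and an adjusted p of 0.0700 (edgeR quasi-likelihood test). TFEB was thus not called by the main test, and was called by DESeq2 (adjusted p = 0.0281). Its log2 fold change lay between 0.53 and 0.64 over the 14 alternatives, with adjusted p from 0.0281 to 0.412. MITF, known mainly from melanocytes, mast cells and osteoclasts, was low, at 3.47, 2.20 and 2.76 CPM with MRT199665 and 2.85, 1.80 and 2.85 CPM with vehicle. The groups of MITF overlapped, with a log2 value of 0.20 ± 0.29 (SE, edgeR adjusted p = 0.802). TFE3 ranged from 28.6 to 39.9 CPM with MRT199665 and from 33.8 to 37.8 CPM with vehicle, with a log2 fold change of -0.02 ± 0.15 (SE). The value of TFE3 was 0.13 without both libraries numbered 2. TFEC, the family gene outside the members, had groups that did not overlap and a log2 fold change of 0.64 ± 0.19 (SE, edgeR adjusted p = 0.162).

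The TFEB family binds the E-box CACGTG, and in many lysosomal genes the 8-base sequence TCACGTGA around it, both of which read the same on either strand. These were searched in promoters of 300 bases, 250 before and 50 after the gene start, from a RefSeq table on GRCh38.p14. A promoter was found for 33 members, of which 6 (18.18%) held the 8-base core, against 1.72% of the promoters of tested genes (214 of 12442) and 0.98% of all promoters of the table. The E-box, alone or within the core, was in 8 members (24.24%), against 9.49% of the promoters of tested genes. The core was searched because it is known from lysosomal genes. A greater share among the members was thus given in advance and is not a result of these counts. The core was present in LAMP1, MCOLN1, CLN3, GAA, ATP6V1G1 and ATP6V0D1, and an E-box without it in NEU1 and ATP6V0B. None of the 6 autophagy genes or the 3 TFEB family genes held either sequence in this window.

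Of the promoters with the core, those of CLN3 and ATP6V1G1, whose log2 fold changes of 0.18 and 0.10 were the lowest, are not shown. Shown are those of 2 membrane proteins, of a hydrolase and of a pump subunit, with log2 fold changes from 0.32 (LAMP1) to 0.50 (ATP6V0D1). They are written 5′ to 3′ on the strand of the gene in lower case, with each TCACGTGA or CACGTG in capitals. LAMP1 lies at chr13:113296989-113297288 on the plus strand, MCOLN1 at chr19:7522374-7522673 on the plus strand, GAA at chr17:80101331-80101630 on the plus strand and ATP6V0D1 at chr16:67481108-67481407 on the minus strand (GRCh38.p14).
LAMP1: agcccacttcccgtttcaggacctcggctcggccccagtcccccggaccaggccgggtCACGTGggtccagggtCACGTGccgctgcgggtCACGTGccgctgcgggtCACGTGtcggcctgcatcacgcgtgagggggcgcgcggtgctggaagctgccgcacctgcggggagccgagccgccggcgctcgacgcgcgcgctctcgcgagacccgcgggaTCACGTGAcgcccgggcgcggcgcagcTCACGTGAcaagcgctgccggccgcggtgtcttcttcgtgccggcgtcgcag
MCOLN1: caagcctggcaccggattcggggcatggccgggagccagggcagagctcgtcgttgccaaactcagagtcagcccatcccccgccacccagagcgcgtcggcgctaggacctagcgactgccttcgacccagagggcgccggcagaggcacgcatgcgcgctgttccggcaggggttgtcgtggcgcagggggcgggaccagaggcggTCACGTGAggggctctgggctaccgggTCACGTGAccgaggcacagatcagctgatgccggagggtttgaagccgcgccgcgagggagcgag
GAA: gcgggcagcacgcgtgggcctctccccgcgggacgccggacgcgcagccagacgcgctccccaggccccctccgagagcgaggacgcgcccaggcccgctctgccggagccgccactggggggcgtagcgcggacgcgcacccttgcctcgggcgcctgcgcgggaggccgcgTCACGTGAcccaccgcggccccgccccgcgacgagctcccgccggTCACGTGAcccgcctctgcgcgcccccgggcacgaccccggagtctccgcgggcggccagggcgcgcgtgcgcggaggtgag
ATP6V0D1: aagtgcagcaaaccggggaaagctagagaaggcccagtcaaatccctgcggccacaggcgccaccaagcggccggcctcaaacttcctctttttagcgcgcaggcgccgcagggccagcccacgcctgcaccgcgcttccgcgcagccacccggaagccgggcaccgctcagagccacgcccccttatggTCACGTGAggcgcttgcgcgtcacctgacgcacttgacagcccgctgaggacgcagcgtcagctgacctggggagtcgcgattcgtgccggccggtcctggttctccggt

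The LAMP1 promoter held the E-box at 6 places, 2 of them as the core. MCOLN1 and GAA each held the core at 2 places, and ATP6V0D1 at 1. The 6 tested members with the core, 3 of them membrane proteins, all had a positive log2 fold change, against 50.9% of all tested genes. Their median was 0.36 and their range from 0.10 (ATP6V1G1) to 0.50 (ATP6V0D1). Without both libraries numbered 2, ATP6V1G1 turned to -0.18 and GAA fell to 0.19, while MCOLN1 rose to 0.78 and CLN3 to 0.32. The 24 tested members with neither sequence had a median of 0.15, a range from -0.37 to 0.95, and 20 positive values. Of the 4 members with the greatest log2 fold changes, GRN and TFEB had a promoter in the table without an E-box, and no promoter was matched for PSAP or ARSA. A match is a description of the sequence and does not show that a factor bound there. The difference in fold change between members with and without the core was not tested.

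**Figure D3:**
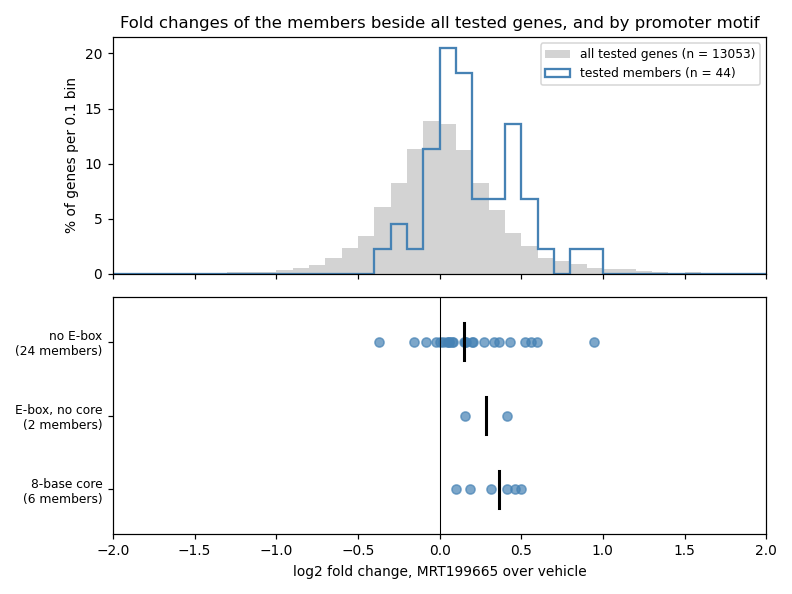
Upper panel: share of genes per bin of 0.1 in log2 fold change (MRT199665 over vehicle) for all 13053 tested genes (grey) and the 44 tested members (blue line), with 43 genes beyond ±2 not drawn. Lower panel: the tested members with a matched promoter by motif class, 1 point per gene and a black bar at the median (0.36 with the 8-base core, 0.28 with an E-box alone, 0.15 with neither).

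Among the hydrolases and their activators, GRN and PSAP had the greatest log2 fold changes, and most of the enzymes lay near 0. GRN encodes progranulin, a secreted and lysosomal protein that is cut into granulins and is abundant in myeloid cells. GRN was at 3343, 2100 and 2649 CPM in MRT199665 replicates 1, 2 and 3 and at 1187, 1651 and 1360 CPM with vehicle. Each treated library was above each vehicle library, and the lowest treated and highest vehicle values were those of the libraries numbered 2. The fold change was 1.93 (log2 0.95 ± 0.20, SE, edgeR adjusted p = 0.0691). GRN was called without MRT199665 replicate 2 (log2 fold change 1.10, adjusted p = 0.0362) and without both libraries numbered 2 (1.23, adjusted p = 0.00915). DESeq2 also called GRN (adjusted p = 0.000656), and adjusted p over all alternatives ran from 2.63e-06 without a low-count filter to 0.415.

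PSAP encodes prosaposin, the precursor of the saposins that present sphingolipids to hydrolases, and its protein binds progranulin. PSAP was at 392, 649 and 468 CPM with MRT199665 and at 377, 213 and 261 CPM with vehicle. The groups were apart, but MRT199665 replicate 1 and vehicle replicate 1 differed little, and the highest and the lowest value were those of the libraries numbered 2, the reverse of the order in GRN. The fold change was 1.77 (log2 0.82 ± 0.24, SE, edgeR adjusted p = 0.163). Without both libraries numbered 2 the log2 fold change of PSAP was 0.43 (edgeR adjusted p = 0.321). Without vehicle replicate 1 that of PSAP was 1.08 (edgeR adjusted p = 0.069). DESeq2 called it (adjusted p = 0.0486), as did edgeR without a low-count filter. GM2A, the activator that presents ganglioside GM2 to hexosaminidase A, had overlapping groups and a log2 fold change of 0.27 ± 0.18 (SE), which was -0.0037 without both libraries numbered 2.

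Of the 14 enzymes tested, ARSA and GAA were higher in every treated library than in every vehicle library, as were 11.4% of all tested genes. ARSA, the arylsulphatase that removes sulphate from sulphatides, was at 139, 104 and 140 CPM with MRT199665 and at 60.1, 94.5 and 87.2 CPM with vehicle. The treated libraries lay above the vehicle libraries, by the least between the libraries numbered 2. The fold change of ARSA was 1.58 (log2 0.66 ± 0.19, SE, edgeR adjusted p = 0.151), and without a low-count filter its adjusted p was 0.00357. GAA, which breaks down glycogen, was at 24.6, 32.3 and 22.3 CPM with MRT199665 and at 20.0, 16.0 and 21.2 CPM with vehicle. The lowest treated value lay just above the highest vehicle value, and the fold change was 1.38 (log2 0.46 ± 0.18, SE, edgeR adjusted p = 0.277). The highest treated and the lowest vehicle value of GAA were those of the libraries numbered 2, and its log2 fold change was 0.19 with both left out.

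The other 12 enzymes had overlapping groups. GLA, an alpha-galactosidase that acts on globotriaosylceramide, was at 0.34 ± 0.21 (SE), but at 0.10 without MRT199665 replicate 2 and 0.03 without both libraries numbered 2. ASAH1, an acid ceramidase, was at -0.23 ± 0.16, and at -0.02 without both. NEU1, a sialidase, was at 0.15 ± 0.18 (0.02 without both) and TPP1, a peptidase, at 0.08 ± 0.14. NAGLU, which degrades heparan sulphate, was at 0.07 ± 0.14, and GLB1, the beta-galactosidase whose activity is used as a senescence stain, at 0.06 ± 0.12. HEXA, a subunit of hexosaminidase A, was among the most evenly measured members, at 104, 95.0 and 99.9 CPM with MRT199665 and 97.5, 103 and 103 CPM with vehicle. Its log2 fold change was -0.03 ± 0.10 (SE), the smallest SE of the members. GUSB, the beta-glucuronidase (0.01 ± 0.14), and LIPA, which hydrolyses cholesteryl esters (0.02 ± 0.15), were also near 0. The values for ARSB, another arylsulphatase (0.06 ± 0.29), and MANBA, a beta-mannosidase (-0.01 ± 0.39), were imprecise, at means under 10 CPM in both groups. Leaving out the libraries numbered 2 moved ARSB to 0.26 and MANBA to -0.55. PPT1, a palmitoyl thioesterase, was at -0.15 ± 0.18 (SE). In GENCODE release 29, on GRCh38, exons of CAP1 on the opposite strand cover all of the last 500 bases of PPT1. The strand setting of the counts is not given, and whether this overlap mixed or removed reads of PPT1 was not tested.

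**Figure D4:**
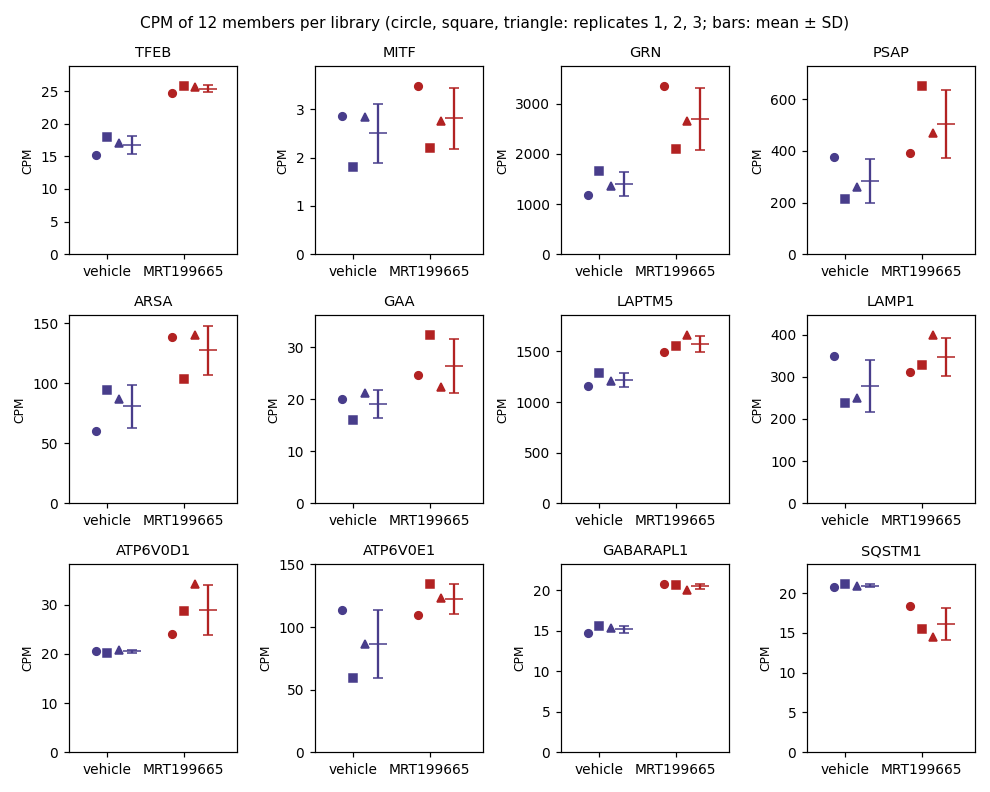
CPM (vertical axis of each panel, starting at 0) in each of the 6 libraries for 12 members, with replicates 1, 2 and 3 as circle, square and triangle and the mean ± SD of 3 libraries beside them. TFEB, GRN, PSAP, ARSA, GAA, LAPTM5, ATP6V0D1 and GABARAPL1 lie higher in all MRT199665 libraries, SQSTM1 lies lower, and MITF, LAMP1 and ATP6V0E1 overlap.

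All 5 lysosomal membrane proteins had a positive log2 fold change, as did 50.9% of all tested genes. The groups did not overlap for 1 of them (20%), where 22.2% of all tested genes did not overlap. LAPTM5, a membrane protein of blood cells that takes part in sorting receptors to lysosomes, was at 1499, 1556 and 1658 CPM with MRT199665 and at 1156, 1289 and 1211 CPM with vehicle. The treated libraries were all higher, and the groups were separated by more than the range within either group. The fold change of LAPTM5 was 1.29 (log2 0.37 ± 0.12, SE, edgeR adjusted p = 0.195). LAMP1, an abundant glycoprotein that lines the lysosomal membrane, was at 313, 328 and 398 CPM with MRT199665 and at 349, 237 and 249 CPM with vehicle. Vehicle replicate 1 lay above 2 of the treated libraries, so the groups overlapped (log2 fold change 0.32 ± 0.17, SE, edgeR adjusted p = 0.450). The value of LAMP1 was 0.51 without vehicle replicate 1 and 0.25 without both libraries numbered 2. MCOLN1, the mucolipin calcium channel that signals to TFEB, ranged from 5.75 to 7.02 CPM with MRT199665 and from 3.36 to 6.61 CPM with vehicle. Its log2 fold change was 0.41 ± 0.26 (SE), and 0.78 without both libraries numbered 2. Exons of other genes on the same strand cover 175 of the last 500 bases of MCOLN1 in GENCODE release 29. CLN3, a membrane protein whose loss causes a childhood neuronal storage disease, was at 0.18 ± 0.13 and LAMP2, needed for fusion of lysosomes with autophagosomes, at 0.16 ± 0.14. With the libraries numbered 2 left out, CLN3 was at 0.32 and LAMP2 at 0.01. With vehicle replicate 1 left out, CLN3 was at 0.09 and LAMP2 at 0.27.

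The proton pump consists of a cytosolic V1 sector that hydrolyses ATP and a membrane V0 sector that carries protons. Of 13 tested pump genes, 10 (76.9%) had a positive log2 fold change, against 50.9% of all tested genes. The groups did not overlap for 4 (30.8%), where 22.2% of all tested genes did not overlap. None was called, and 2 (15.4%) were higher at an unadjusted p under 0.05, against 7.63% of all tested genes. Those 2 were V0 subunits. ATP6V0D1, which couples the sectors, was at 24.0, 28.7 and 34.2 CPM with MRT199665 and at 20.6, 20.2 and 20.8 CPM with vehicle. The vehicle libraries were nearly equal and the treated libraries spread, all above them, at a fold change of 1.41 (log2 0.50 ± 0.15, SE, edgeR adjusted p = 0.176). ATP6V0E1, a small V0 subunit, was at 110, 134 and 123 CPM with MRT199665 and at 114, 59.5 and 86.3 CPM with vehicle. Vehicle replicate 1 lay above MRT199665 replicate 1, and the log2 fold change was 0.50 ± 0.21 (SE, edgeR adjusted p = 0.328). Without both libraries numbered 2 it was 0.22. ATP6V0B, of the proton-carrying ring, was at 0.41 ± 0.19 (SE) with overlapping groups, and at 0.12 without the libraries numbered 2.

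Of the 8 V1 genes, ATP6V1A, the catalytic subunit, was above vehicle in each treated library (21.8 to 26.2 against 19.0 to 20.6 CPM, log2 fold change 0.28 ± 0.13, SE). ATP6V1H, a regulatory subunit, was below it in each (9.97 to 11.2 against 11.5 to 14.3 CPM, -0.27 ± 0.15). The other 6 overlapped, from ATP6V1D, a rotor subunit, at -0.08 ± 0.15 to ATP6V1E1, a stalk subunit, at 0.20 ± 0.29. Between these lay ATP6V1B2, part of the ATP-hydrolysing head (-0.03 ± 0.26), the rotor subunit ATP6V1F (0.08 ± 0.13), the stalk subunit ATP6V1G1 (0.10 ± 0.18) and ATP6V1C1 (0.18 ± 0.13). Without both libraries numbered 2 the direction of ATP6V1E1 turned, to -0.30, as did that of ATP6V1G1, to -0.18, and ATP6V1B2 was at -0.37. The accessory genes ATP6AP1, which assists assembly of the pump, and ATP6AP2, also known as the prorenin receptor, had log2 fold changes of 0.16 ± 0.11 and 0.04 ± 0.13. ATP6AP1 did not overlap between the groups, at 337 to 379 CPM with MRT199665 and 316 to 335 CPM with vehicle. In the untested ATP6V0C, another gene's exons on the same strand cover all of the last 500 bases in GENCODE release 29. Whether reads there were left uncounted was not tested.

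The autophagy genes did not all lie in the same direction. GABARAPL1, a GABARAP family protein of the forming autophagosome, was at 20.7, 20.6 and 20.1 CPM with MRT199665 and at 14.7, 15.5 and 15.3 CPM with vehicle. Both groups were tight and well apart, at a fold change of 1.35 (log2 0.43 ± 0.12, SE, edgeR adjusted p = 0.146). SQSTM1, also known as p62, is both a cargo receptor of autophagy and a target gene of the oxidative stress factor NRF2. It was at 18.4, 15.6 and 14.5 CPM with MRT199665 and at 20.8, 21.1 and 21.0 CPM with vehicle, lower in each treated library. The fold change of SQSTM1, vehicle over MRT199665, was 1.29 (log2 MRT199665 over vehicle -0.37 ± 0.14, SE, edgeR adjusted p = 0.258). Exons of MRNIP on the opposite strand cover all of the last 500 bases of SQSTM1 in GENCODE release 29. Here too, whether this overlap mixed or removed reads of the gene was not tested.

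MAP1LC3B, the LC3 protein most used as a marker of autophagosomes, was at 11.2, 19.3 and 13.3 CPM with MRT199665 and at 12.7, 6.43 and 10.1 CPM with vehicle. The extremes were again the libraries numbered 2, and the groups overlapped (log2 fold change 0.56 ± 0.28, SE, edgeR adjusted p = 0.402). With both of them left out, the log2 fold change of MAP1LC3B was 0.10. GABARAPL2 was at 65.1 CPM in MRT199665 replicate 2 and between 22.6 and 36.7 CPM in the other libraries. Its log2 fold change was 0.52 ± 0.34 (SE), and -0.11 without both libraries numbered 2. GABARAP and WIPI1, which binds the phospholipid of the forming membrane, had means of about 1 CPM in both groups and SE of 0.38 and 0.34, so only large changes were detectable at this depth. Leaving out the libraries numbered 2 moved GABARAP from 0.15 to 0.48. Exons of other genes cover 87 of the last 500 bases of GABARAP on the same strand and all 500 of WIPI1 on the opposite strand. The near-copies MAP1LC3B2 and GABARAPL3 had 7 and 2 counts over all libraries, against 774 for MAP1LC3B and 1185 for GABARAPL1.

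MRT199665 replicate 2 held the highest value of 15 of the 44 tested members, and MRT199665 replicates 1 and 3 of 11 each. The lowest value was in vehicle replicate 2 for 17 members, in vehicle replicate 1 for 13 and in MRT199665 replicate 2 for 7. For the proton pump the libraries numbered 2 also gave the extremes of the centred mean log2 CPM, 0.1852 with treatment and -0.176 with vehicle. For the membrane proteins it was 0.128, 0.140 and 0.180 in MRT199665 replicates 1, 2 and 3 and -0.173, -0.0414 and -0.233 with vehicle, so these groups were apart with or without the libraries numbered 2.

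Of 110 other genes of these pathways, 99 were tested and none was called by edgeR. At an unadjusted p under 0.05, 14 were higher (14.1%, against 7.63% of all tested genes) and 3 lower (3.03%, against 7.11%). Of 31 other lysosomal hydrolases, transporters and sorting genes, 25 (80.6%, against 50.9% of all tested genes) had a positive log2 fold change, with a median of 0.25. Those with the lowest p were IDS, the iduronate sulphatase (1.44-fold, log2 0.53 ± 0.12, SE, adjusted p = 0.0794), and ACP2, a lysosomal phosphatase (1.40-fold, log2 0.49 ± 0.12, SE, adjusted p = 0.105). IDS was at 41.5 to 44.9 CPM with MRT199665 and 28.1 to 32.1 CPM with vehicle. Of 5 other pump subunits tested, 4 were positive, and those with the lowest p were the V0 subunits ATP6V0A1 (log2 fold change 0.31 ± 0.13) and ATP6V0A2 (0.27 ± 0.14).

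Of 42 other autophagy genes, 22 were positive (52.4%, against 50.9% of all tested genes) and 20 negative, with a median of 0.03. MAP1LC3A, the LC3 paralogue, was at 19.3, 11.0 and 19.3 CPM with MRT199665 and 6.71, 8.41 and 7.43 CPM with vehicle (2.24-fold, log2 1.16 ± 0.23, SE, edgeR adjusted p = 0.0551). All treated libraries of MAP1LC3A were above vehicle, and this was the lowest adjusted p among the listed pathway genes. ATG13, a subunit of the kinase complex that starts autophagy, had a fold change of 1.41 (log2 0.50 ± 0.13, SE, adjusted p = 0.115). Of 21 genes in a list for nutrient sensing at the lysosome, which also held TFEC, 14 were positive (66.7%), with a median of 0.08. Those with the lowest p were TFEC, the remaining TFEB family gene (7.65 to 8.28 against 4.03 to 5.70 CPM, log2 0.64 ± 0.19, SE), and RRAGC, a GTPase that recruits TFEB and mTORC1 to the lysosome (0.30 ± 0.11, SE).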

How the data were processed

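The authors deposited raw counts per gene symbol, whole numbers without normalization, for 6 libraries of OCI-AML2. The submitters' processing notes name STAR 2.4, HTSeq 0.6.1, DESeq2 and the hg19 build. For annotation, strand setting and read filters, nothing is given in the sources used here. Per the labels' protocols a Lexogen kit for 3′ messenger RNA was used. Groups and replicate numbers came from the labels.

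The main test was the quasi-likelihood F-test of edgeR 4.0.16 (R 4.3.3) on the whole table, with TMM scaling and treatment as the sole term. Genes were kept by filterByExpr (at least 10 counts in enough libraries, total of 15 or more), which left 13053 genes, over which p-values were adjusted (Benjamini-Hochberg, two-sided). The SE is the log2 fold change divided by the square root of F. Scripts were tested on simulated counts. No library was taken as a copy of another, since counts of replicates differed with a chi-square of at least 8.59 per degree of freedom. Depth of 5871097 to 14308650 counts limits the precision of genes at few CPM.

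The members and lists were chosen with earlier results of these data known. Every library's value is given for members with an unadjusted p under 0.05 or among the 2 lowest p of their subgroup (12 members), and for HEXA and MAP1LC3B, chosen after their values were seen. Of each list of other pathway genes, which were written from general knowledge, the called genes or else the 2 with the lowest p are named. ATG101 was matched through its older symbol. Alternatives were RLE and upper-quartile scaling, no filter or a filter of 1 CPM in every library of a group, DESeq2 1.42.0, limma-voom (limma 3.58.1), a replicate block, and leaving out each library or both numbered 2. Promoters come from a RefSeq table and gene ends from GENCODE release 29, both on GRCh38 and not on the build of the counts, so no coordinate was joined to the counts.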

Additional observations from a re-analysis of the deposited data

How the results depend on the processing

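In each of the 14 alternatives the median log2 fold change of the tested members was positive, and leaving out single libraries gave 0.1163 (without MRT199665 replicate 2) to 0.2475 (without vehicle replicate 1). Between 31 and 36 members had a positive value. No member was called lower in any alternative. Members called higher numbered 3 without a low-count filter (GRN, PSAP and ARSA), 3 by DESeq2, 1 without both libraries numbered 2 (GRN) and 0 to 1 when single libraries were left out. The count of members lower at an unadjusted p under 0.05 was 0 without both libraries numbered 2, and 0 to 1 when single libraries were left out. In the main test it was 1 of 44 (2.27%, against 7.11% of all tested genes). For the alternatives that share over all genes was not computed. Over all genes, 373 of 28230 were called higher and 271 lower without a low-count filter, and 217 and 146 of 13053 by DESeq2. Without both libraries numbered 2, 92 of 13272 were called higher and 45 lower. Leaving out single libraries gave 29 to 78 higher and 20 to 55 lower, against 111 and 52 of 13053 in the main test.

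Same-numbered libraries did not deviate together (r = -0.547, -0.467 and 0.018 for numbers 1, 2 and 3), so they were not treated as pairs. Differently numbered libraries reached r = 0.53 (MRT199665 replicate 1 with vehicle replicate 2) and 0.482 (MRT199665 replicate 2 with vehicle replicate 1). With 3 libraries per group, these values cannot show which libraries shared a culture or batch. With a replicate block 7 genes were called higher and 5 lower, no member was called (0 higher), and 0 members were lower at an unadjusted p under 0.05.

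Of 44 members, 25 kept their direction in every alternative, among them the 12 plotted library by library. The other 19 had values near 0 or a wide spread, and the cause was not tested. With both libraries numbered 2 left out, GLB1 was at -0.007, GUSB -0.0386, LIPA -0.1585, GM2A -0.0037, ATP6V1E1 -0.3023, ATP6V1G1 -0.1818, GABARAPL2 -0.1114, HEXA 0.014, PPT1 0.0853 and TFE3 0.1318. GUSB was at -0.0149 without a low-count filter and -0.0031 with the block. LIPA was at -0.0045 without the filter and -0.0038 by limma-voom. MANBA was at 0.005 with upper-quartile scaling, 0.0105 by DESeq2, 0.0569 by limma-voom and 0.1004 with the block, and ATP6V1B2 at 0.0187 by limma-voom and 0.0197 with the block. Leaving out single libraries gave -0.0191 to 0.1419 for GLB1, -0.1316 to 0.094 for GUSB, -0.0588 to 0.0043 for HEXA, -0.3165 to 0.5706 for MANBA, -0.0166 to 0.1418 for NAGLU and -0.2031 to 0.2305 for ARSB. It gave -0.1014 to 0.0746 for LIPA, -0.2703 to 0.0139 for PPT1, -0.0235 to 0.1839 for TPP1, -0.1079 to 0.1071 for TFE3 and -0.2474 to 0.3141 for ATP6V1B2. For ATP6V1D the range was -0.1596 to 0.0189, for ATP6V1E1 -0.1804 to 0.4478, for ATP6V1F -0.0312 to 0.1423, for ATP6V1G1 -0.0544 to 0.235, for ATP6AP2 -0.0562 to 0.1385 and for GABARAP -0.0383 to 0.3368.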
